A study of Mus musculus with 6 samples.

Results

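The genes described here are 35 genes of glycolysis and of the hypoxia-inducible factor (HIF) pathway. They were measured in pieces dissected as proximal tubules from mice without Clcn5 and from wild type mice, and markers of other segments were also read in them. They were chosen by name, and a gene was read from array features (probe sets) annotated with its symbol alone, using the probe set with the highest mean log2 signal over all 6 arrays. Such a probe set was found for 32 of the 35, out of 18194 genes on the array, while Gpi1, Eno1 and Bnip3l had none and were not analysed here. The 32 comprise 15 enzymes of the glycolytic steps, 4 regulators of glycolytic flux, 6 components of the HIF pathway and 7 other hypoxia targets. Of these, 29 passed the filter on dim probe sets and were tested. Hk2 and Ankrd37 were too dim, and Gapdh was read only by control probe sets.

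There were 3 arrays per group, and each array carried RNA pooled from the dissected tubules of several mice. The knockout mice lack Clcn5, which encodes the endosomal chloride/proton exchanger ClC-5, and the wild type mice were the controls. From each kidney 80 to 100 tubule pieces of 2 mm were taken. The labels give 3 to 4 mice per pool, the records kept with the arrays give 7, and the strain, age, sex and allele are not given in the sources used here. Arrays of a group are called biological replicates in the records, and the p-values measure the spread between such pools. Knockout array 3 alone was run with another lot of solution, and its median signal was 48.8, beside 40.9 to 45.3 on the other 5 arrays. Knockout array 3 and wild type array 2 (median 45.3) were run on fluidics station 2, a device that washes and stains arrays. The other arrays were run on station 1, with medians of 40.9 to 43.4. The part of lot or station in these medians was not tested. Values are linear signals of an Affymetrix mouse array, with the same trimmed mean on every array. They were compared on the log2 scale with limma. Clcn5 itself fell on every knockout array, to signals of 352, 322 and 269 against 1013, 709 and 1029 in wild type (log2 change −1.53, SE 0.14, limma adjusted p = 9.32e-05). The deleted stretch of the gene is not given, so whether this probe set lies within it is unknown. Levels of different genes are not compared, because a signal depends on its probes.

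Glycolysis converts glucose to pyruvate in the cytosol, and lactate dehydrogenase interconverts pyruvate and lactate. HIF is a transcription factor built from an oxygen-regulated alpha subunit (Hif1a or Epas1) and a constant partner (Arnt). With oxygen present, prolyl hydroxylases of the Egln family mark the alpha subunit, the von Hippel-Lindau protein binds it and it is degraded. When oxygen falls, HIF accumulates and raises the transcripts of most glycolytic enzymes, of Pdk1, Vegfa, Bnip3 and many others. The alpha subunits are controlled mainly as proteins, so their transcripts do not report HIF activity. Proximal tubule cells rely mostly on fatty acid oxidation and can make glucose, and they use little glucose as fuel.

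Few of these genes differed between knockout and wild type tubules. Pkm, of the pyruvate kinase that ends glycolysis, rose 1.25-fold, and Bnip3, of a mitochondrial protein that promotes mitophagy, fell 1.20-fold. The other 27 tested genes did not pass limma's threshold, an adjusted p of 0.05 over all 11620 tested genes. The members called were therefore 2 of 29, or 6.90%, against 6.48% of all tested genes, and the share of these genes is close to that background. Before adjustment 5 of the 29 had a p under 0.05, where 19.4% of all genes did. The knockout and wild type signals did not overlap for 6 of the 29, or 20.7%, where 25.2% of all tested genes had such groups. The median log2 change of the 29 was 0.02, beside 0.01 over all tested genes, and 15 were higher and 14 lower in knockout, where 51.7% of all genes were higher on average. In pooled tissue, fewer cells of a type and less RNA per cell cannot be told apart.

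**Figure D1:**
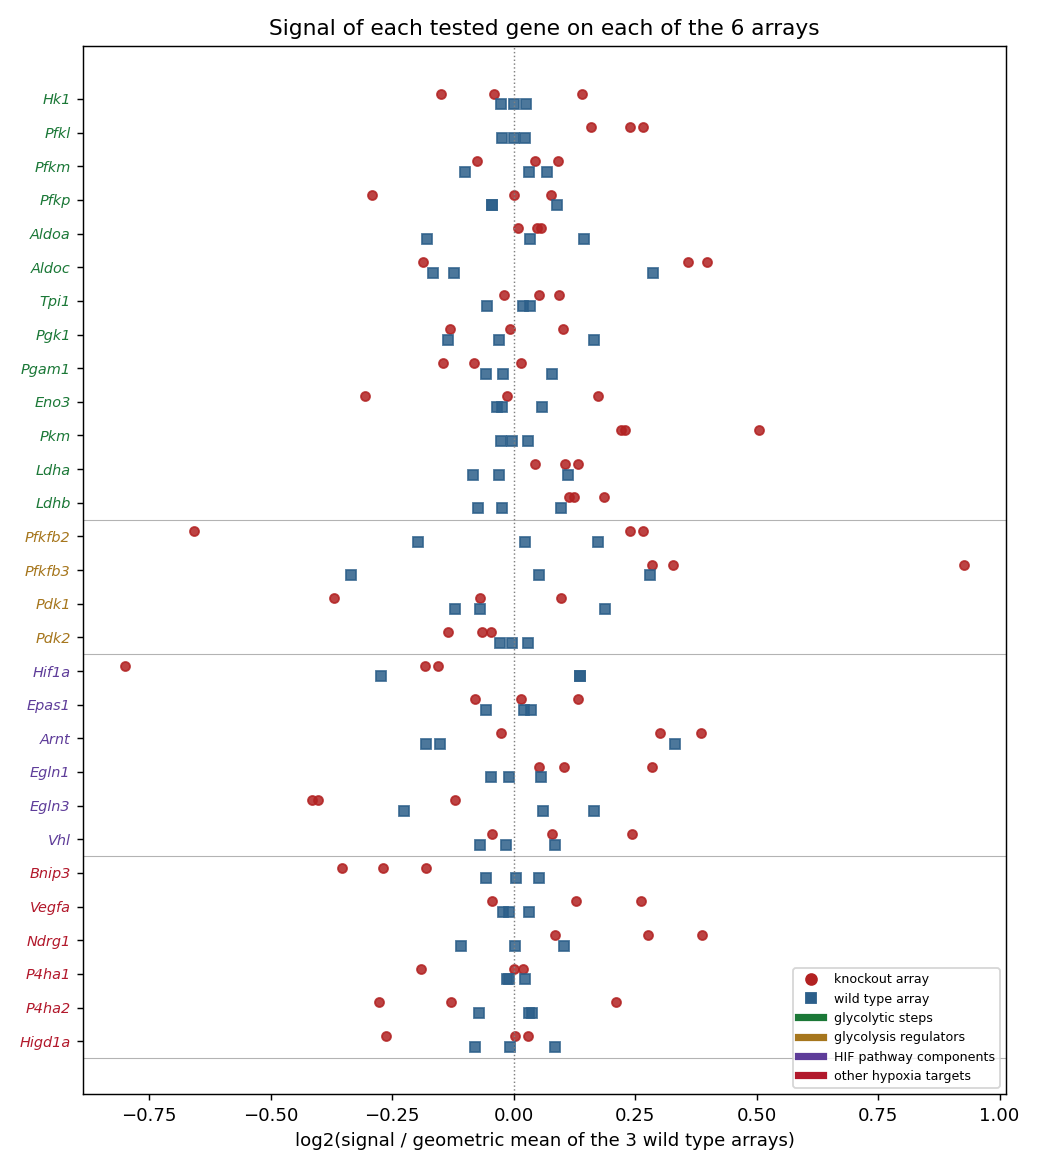
Each row is a tested gene, with the 3 knockout arrays as red circles and the 3 wild type arrays as blue squares. The x axis is log2 of the signal over the geometric mean of the 3 wild type arrays. The 2 groups are separated for 6 genes, among them Pkm on the higher side and Bnip3 on the lower side, and the 2 sets of arrays interleave for most others.

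In 23 of the 29 genes, the 2 called ones included, the 95% interval of the change lay wholly within 1.5-fold in either direction, as it did for 8437 of all 11620 tested genes. This limit is wider than the changes of Pkm and Bnip3, so changes of their size are not excluded by it. By role it held for 12 of 13 glycolytic steps and 6 of 6 other hypoxia targets. The genes with wider intervals were dim or varied between arrays: Aldoc, Pfkfb2, Pfkfb3, Hif1a, Arnt and Egln3. No detection calls were part of the table used here, so none of the dim signals could be called above or below background.

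HIF binds DNA at sites with the core letters ACGTG or GCGTG. The promoter windows below show the ACGTG form for the 2 genes that passed the threshold and for Ldha, a textbook HIF target. They were taken from RefSeq (build GRCm38.p6, 250 bases before to 50 after an annotated start), and GCGTG is not marked in them. Capitals mark ACGTG read on either strand, 5′ to 3′ on the strand of the gene, where CACGT is the same core on the opposite strand. The palindrome CACGTG holds the core on both strands and is also the E-box that other factors bind.
Pkm, chr9:59656977-59657276, plus strand: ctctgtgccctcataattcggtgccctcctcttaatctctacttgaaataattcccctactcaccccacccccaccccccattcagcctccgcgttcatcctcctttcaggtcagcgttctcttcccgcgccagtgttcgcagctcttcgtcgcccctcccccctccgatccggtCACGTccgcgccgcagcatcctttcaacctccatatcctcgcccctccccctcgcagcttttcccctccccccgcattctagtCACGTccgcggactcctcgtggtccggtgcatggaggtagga
Bnip3, chr7:138909457-138909756, minus strand: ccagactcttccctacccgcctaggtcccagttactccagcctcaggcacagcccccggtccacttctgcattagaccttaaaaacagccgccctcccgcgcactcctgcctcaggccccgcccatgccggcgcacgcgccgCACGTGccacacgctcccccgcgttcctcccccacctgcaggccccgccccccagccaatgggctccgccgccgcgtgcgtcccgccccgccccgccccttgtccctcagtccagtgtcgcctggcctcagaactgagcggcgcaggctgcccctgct
Ldha, chr7:46845554-46845853, plus strand: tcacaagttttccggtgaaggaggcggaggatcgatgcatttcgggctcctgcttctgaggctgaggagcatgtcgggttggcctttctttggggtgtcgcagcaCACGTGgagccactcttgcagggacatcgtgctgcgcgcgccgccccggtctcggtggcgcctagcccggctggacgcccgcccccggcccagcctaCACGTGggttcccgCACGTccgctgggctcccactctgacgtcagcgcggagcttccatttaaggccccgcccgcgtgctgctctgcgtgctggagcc

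The Pkm window holds ACGTG at 2 places, both on the opposite strand, and the window at the other annotated start of Pkm holds none. In Bnip3 ACGTG lies at 1 place, inside the E-box, and in the Ldha window shown at 3 places, 2 of them E-boxes. The window at the other annotated start of Ldha holds no ACGTG. The unmarked GCGTG also occurs in the Bnip3 window, 1 time on the strand of the gene and 2 times on the opposite strand. In the Ldha window shown it occurs 2 times on the strand of the gene, and in the Pkm windows not at all. RefSeq windows were found for 32 of the 35 genes, and not for Epas1, Ndrg1 and Bnip3l. ACGTG was present in a window of 22 of the 32 genes, or 68.8%, beside 21.8% of the 27025 genes in the table and 23.2% of its protein-coding genes. Counted by windows of 300 bases, it was in 26 of 49 (53.1%), beside 19.6% of all windows, and GCGTG was in 57.1% beside 32.4%. All 6 other hypoxia targets with a window held ACGTG, as did 10 of 17 glycolytic steps. Many of the 35 genes were listed as known targets of hypoxia or HIF, so their higher share is no independent finding. The shares by gene also differ in windows, with 49 for the 32 genes and 32851 for the 27025. The tested genes with ACGTG in a window numbered 19, with 1 called higher, 1 called lower and a median log2 change of −0.02. The 8 tested genes with windows but without ACGTG had none called and a median of 0.07. With 6.48% of all tested genes called, these counts are too small to set the 2 sets of genes apart. The split is by ACGTG alone: in the set without it, Pfkl, Pfkp, Eno3, Ldhb, Pdk1 and Arnt hold GCGTG, the other form of the core. A match of letters is not a binding site, and nothing about HIF binding in these tubules follows from it.

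Among the glycolytic steps, 1 of 13 tested enzymes rose and none fell, 7.69% beside the 6.48% of all genes. Pkm encodes the M forms of pyruvate kinase, which turn phosphoenolpyruvate into pyruvate. Its signals were 948, 783 and 778 on the knockout arrays and 681, 656 and 666 on the wild type arrays. All 3 knockout values lay above all wild type values, and knockout array 1 stood highest. The change was 0.32 on the log2 scale (SE 0.08, 95% interval 0.14 to 0.50, limma adjusted p = 0.045). The direction was the same on each fluidics station, with a log2 change of 0.35 on station 1 (2 arrays per group) and 0.25 between the 2 arrays of station 2. The call held without knockout array 3 (adjusted p = 0.0386), and it ended without any 1 of the other arrays (adjusted p between 0.0549 and 0.143) and with the station as a block (0.0506). It also ended without the filter (0.0758), without the intensity trend of the test (0.158) and on station 1 alone (0.124). Only 1 probe set carried Pkm alone, so no other could be compared.

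Pfkl, the liver-type subunit of phosphofructokinase, which commits fructose 6-phosphate to glycolysis, also had groups that did not overlap. Its signals were 508, 547 and 537 in knockout and 455, 462 and 447 in wild type, and they differed by 0.22 on the log2 scale (SE 0.07, limma adjusted p = 0.0784). The knockout arrays were higher with this probe set, but the other 2 kept probe sets of Pfkl had log2 changes of −0.03 and −0.26, and the average of all 3 was at −0.02. Ldhb, of the lactate dehydrogenase subunit that prevails in oxidative tissues, read 5897, 5940.4 and 6195 in knockout and 5356, 5181 and 5827 in wild type. These groups did not overlap either, yet the change of 0.14 (SE 0.07, limma adjusted p = 0.319) did not pass. The other 3 probe sets of Ldhb had changes of 0.04 to 0.11, all in the same direction.

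**Figure D2:**
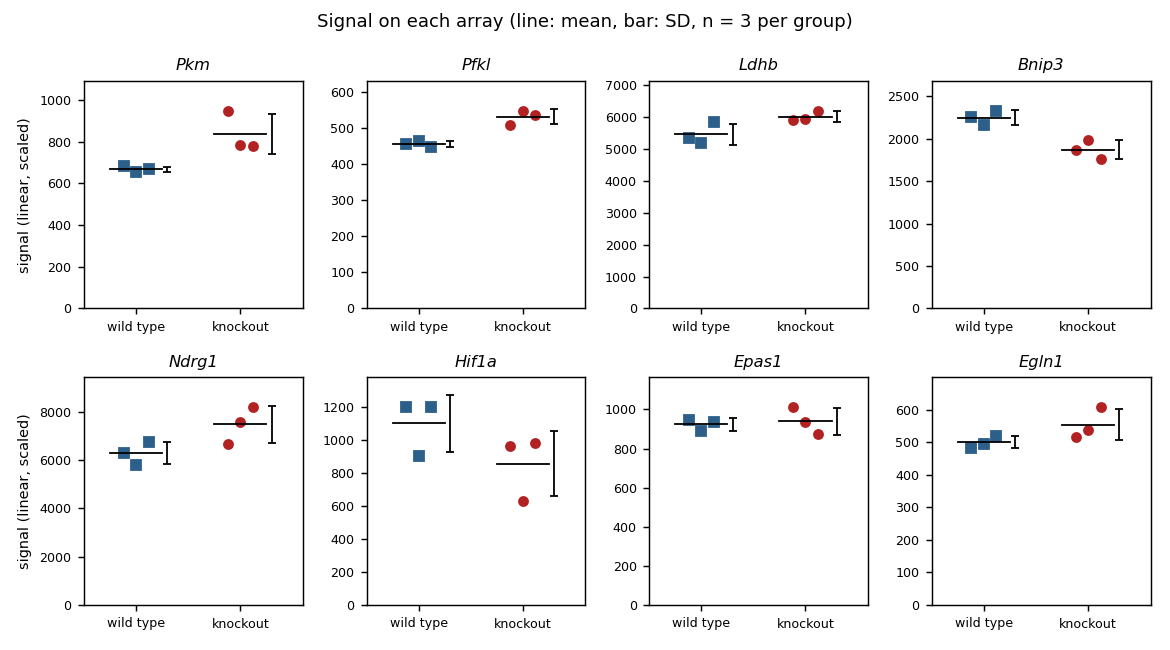
Linear signals of 8 genes on each array, wild type as blue squares and knockout as red circles, with the mean as a line and the SD as a bar (n = 3 per group, axes from 0). Pkm and Pfkl are higher on all 3 knockout arrays and Bnip3 is lower on all 3, while Epas1 shows no separation.

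The remaining 10 enzymes are given from the first to the last step. Hk1, the hexokinase that phosphorylates glucose, had a log2 change of −0.02 (95% interval −0.19 to 0.16), and its other kept probe set was at 0.27. Pfkm and Pfkp, the muscle and platelet subunits of phosphofructokinase, were at 0.02 and −0.07. The aldolase genes Aldoa and Aldoc, which split fructose 1,6-bisphosphate, were at 0.04 and 0.19, and the sign of Aldoa turned under quantile normalization (−0.03). The other 4 kept probe sets of Aldoa were on the opposite side, at −0.07 to −0.01, and Aldoc, a dim gene, had a wide interval of −0.29 to 0.68. Tpi1, of triosephosphate isomerase, was at 0.04, with its other 2 probe sets at 0.05. The following steps were at −0.01 for Pgk1 (phosphoglycerate kinase, 95% interval −0.22 to 0.19), −0.07 for Pgam1 (phosphoglycerate mutase) and −0.05 for Eno3 (muscle enolase). Both other kept probe sets of Pgk1 were on the opposite side, at 0.05. Ldha, of the lactate dehydrogenase subunit that favours lactate formation, was at 0.09 (95% interval −0.07 to 0.25). Adjusted p-values of these 10 genes by limma ran from 0.544 to 0.961.

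Gapdh, of glyceraldehyde 3-phosphate dehydrogenase, was read by 3 control probe sets at the 5′ part, the middle and the 3′ part of its transcript. The brightest, at the 5′ part, read 6979, 7639 and 8258 in knockout and 7347, 6745 and 8147 in wild type. The groups interleaved, and entered in the fit it had a log2 change of 0.04 (SE 0.09, 95% interval −0.16 to 0.25, limma adjusted p = 0.869). The middle and 3′ probe sets were at 0.09 and 0.12. Hk2, the hexokinase that HIF and insulin raise in many tissues, was under the filter, with signals of 41.9, 35.3 and 53.4 in knockout and 35.3, 31.5 and 45.5 in wild type. These values overlapped, and Hk2 was not tested.

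None of the 4 regulators passed limma's threshold, where 6.48% of all genes did. Pfkfb3 makes fructose 2,6-bisphosphate, the activator of phosphofructokinase, and is a HIF target. It read 70.1, 106 and 68.1 in knockout and 67.9, 57.9 and 44.3 in wild type. The groups were separated by a narrow gap, at low signal, with 1 high knockout array. The log2 change was 0.51 (SE 0.23, 95% interval −0.01 to 1.03, limma adjusted p = 0.263), and the other kept probe set of Pfkfb3 was at 1.01. That dimmer probe set read 83.0, 63.8 and 65.5 in knockout and 42.6, 31.9 and 31.6 in wild type, with a wider gap between the groups. Pdk2, a kinase that inactivates pyruvate dehydrogenase, read 1389, 1406 and 1323 in knockout and 1483, 1424 and 1450.2 in wild type. All knockout values were below all wild type values, by a small margin of −0.08 on the log2 scale (SE 0.06, limma adjusted p = 0.507). Pdk1, the kinase of this family best known as a HIF target, was at −0.11 (limma adjusted p = 0.728), and its other 2 kept probe sets lay on opposite sides, at −0.32 and 0.43. On the probe set at 0.43 the groups did not overlap. Pfkfb2, which makes the same activator as Pfkfb3, was at −0.05 with a wide interval of −0.63 to 0.53.

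None of the 6 components of the HIF pathway passed the threshold. Hif1a, which encodes HIF-1 alpha, had signals of 959.6, 626 and 978 in knockout and 1197, 901 and 1198 in wild type. The groups overlapped, since wild type array 2 lay below 2 of the knockout arrays, and knockout array 2 was the lowest. The log2 change was −0.38 (SE 0.17, 95% interval −0.74 to −0.01, unadjusted p = 0.0435, limma adjusted p = 0.238). It was −0.63 on station 1 and 0.12 between the 2 arrays of station 2, so the direction did not hold within both stations. Without knockout array 2 it was −0.17. The other 2 kept probe sets of Hif1a were at −0.27 and −0.03.

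Epas1 encodes HIF-2 alpha, which in the kidney is known from endothelial and interstitial cells. It read 1012, 933 and 874 in knockout and 946, 888 and 937 in wild type, with interleaved groups. The log2 change was 0.02 (95% interval −0.13 to 0.18), and its second kept probe set was at −0.22. On this second, dimmer probe set every knockout array lay below every wild type array. Arnt, the constant partner, read 145, 137 and 109 in knockout and 97.8, 139.5 and 99.8 in wild type, and these overlapped. Its change of 0.22 (SE 0.17, limma adjusted p = 0.551) was 0.51 on station 1 and −0.36 on station 2, and its other 3 kept probe sets ranged from −0.22 to 0.12.

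On the oxygen-sensing side, Egln1, Egln3 and Vhl had changes of either sign, and none of them passed the threshold. Egln1, the main HIF prolyl hydroxylase, read 517, 537 and 608 in knockout and 483, 496 and 519 in wild type. The lowest knockout array lay just under the highest wild type array, and the change was 0.15 (SE 0.08, limma adjusted p = 0.338). The other kept probe set of Egln1 was at −0.16, with every knockout array below every wild type array. Egln3, a hydroxylase that is itself a HIF target, read 54.8, 66.6 and 54.4 in knockout and 75.5, 81.2 and 61.9 in wild type. Knockout arrays 1 and 3 were lower than all wild type arrays and array 2 was not, with a change of −0.31 (SE 0.19, limma adjusted p = 0.417) and −0.08 for the other kept probe set. Vhl, of the von Hippel-Lindau protein, read 245, 219 and 201 in knockout and 219, 197 and 205 in wild type. The groups overlapped, at 0.09 (SE 0.10, limma adjusted p = 0.696).

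**Figure D3:**
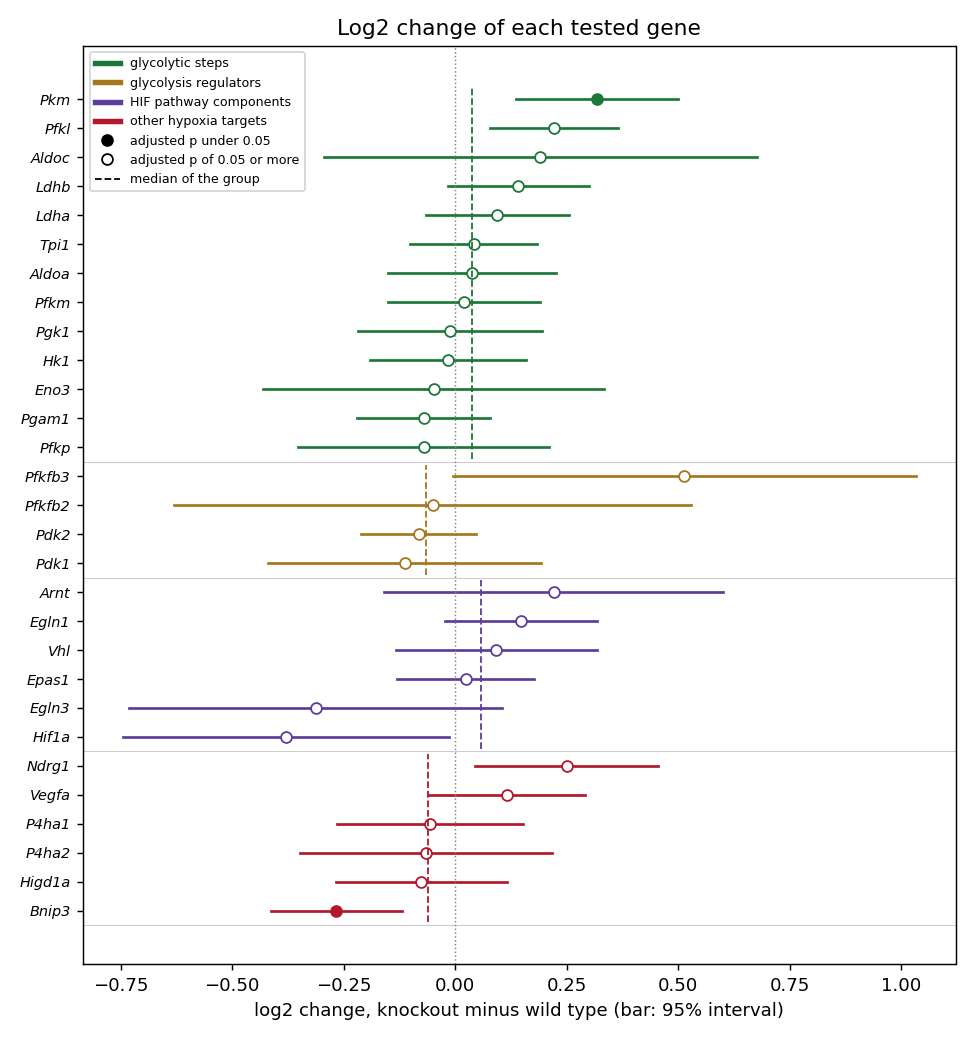
Log2 change of each tested gene, knockout minus wild type, with its 95% interval, by role. Filled points have a limma adjusted p under 0.05, which are Pkm (0.32) and Bnip3 (−0.27), and the dashed lines are the medians of the 4 groups, between −0.07 and 0.06.

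Of the other hypoxia targets, 1 of 6 tested fell, beside 3.24% of all genes that fell, and none rose. Bnip3, whose protein sits in the outer mitochondrial membrane, had signals of 1868, 1987 and 1762 in knockout and 2257, 2163 and 2331 in wild type. Every knockout array was below every wild type array. The log2 change was −0.27 (SE 0.07, 95% interval −0.41 to −0.12, limma adjusted p = 0.0398), with −0.25 on station 1 and −0.30 between the 2 arrays of station 2. The call held without knockout array 2 (adjusted p = 0.0419) and ended without any 1 of the other arrays (0.0574 to 0.152). It also ended without the filter (0.0662), without the intensity trend (0.15), on station 1 alone (0.109) and with the replicate number as a block (0.0717). Bnip3 had 1 probe set, and the related Bnip3l had none with its symbol alone.

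Ndrg1, a stress-responsive gene raised by hypoxia in many cell types, lay on the opposite side. It read 6655, 7597 and 8204 in knockout and 6285, 5823 and 6739 in wild type. Knockout array 1 was just under the highest wild type array and the other 2 were above it. The change was 0.25 (SE 0.09, 95% interval 0.04 to 0.46, limma adjusted p = 0.163). All 4 other kept probe sets of Ndrg1 were higher too, by 0.17 to 0.33, and on each of them the knockout and wild type groups did not overlap. Ndrg1 passed under quantile normalization (0.17, limma adjusted p = 0.0342). Vegfa, the vascular growth factor and a standard HIF target, read 812, 891 and 721 in knockout and 738, 731 and 759.9 in wild type. Knockout array 3 lay below all wild type arrays and the other 2 above them, with a change of 0.12 (SE 0.08, limma adjusted p = 0.487).

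The other 3 tested targets differed little. P4ha1 and P4ha2, of the collagen prolyl hydroxylases, were at −0.06 and −0.07, and Higd1a, of a mitochondrial protein induced by hypoxia, was at −0.08. Their limma adjusted p-values were 0.81, 0.845 and 0.705. Ankrd37, a small gene known as a strong HIF target, was under the filter. Its signals of 27.7, 5.53 and 18.6 in knockout and 14.3, 8.01 and 7.13 in wild type overlapped and were too dim to test.

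Compared as groups, the glycolytic steps and the other hypoxia targets both lay near the median of all genes. The median log2 change was 0.04 for the 13 glycolytic steps and −0.06 for the 6 other targets, beside 0.01 for all 11620 genes. Array by array, the median deviation of the glycolytic steps from the wild type mean was 0.08, 0.01 and 0.09 in knockout and −0.03, −0.05 and 0.07 in wild type. For the other targets it was 0.06, −0.09 and −0.09 in knockout and −0.0033, −0.04 and 0.04 in wild type. In both groups the knockout and wild type arrays overlapped. The range within a group was wider than the distance between the medians, from −0.07 to 0.32 for the steps and from −0.27 to 0.25 for the targets. The 2 genes that passed are thus 1 from each group, and they went in opposite directions. The difference between the groups was not tested.

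Probe sets of a gene did not always agree. Of 19 tested genes with another kept probe set, 10 had all of them on the same side and 9 had at least 1 on the opposite side. Ndrg1, Ldhb, Tpi1 and Vegfa agreed throughout, and Hk1, Pfkl, Aldoa, Pgk1, Pdk1, Epas1, Arnt, Egln1 and Higd1a did not. Aldoa, Tpi1, Pgk1 and Ldhb were represented by probe sets of the x type, which the manufacturer marks as holding probes that can bind other transcripts, and Arnt and Ndrg1 by the s type, which matches several transcripts. Their values can include signal of similar genes.

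**Figure D4:**
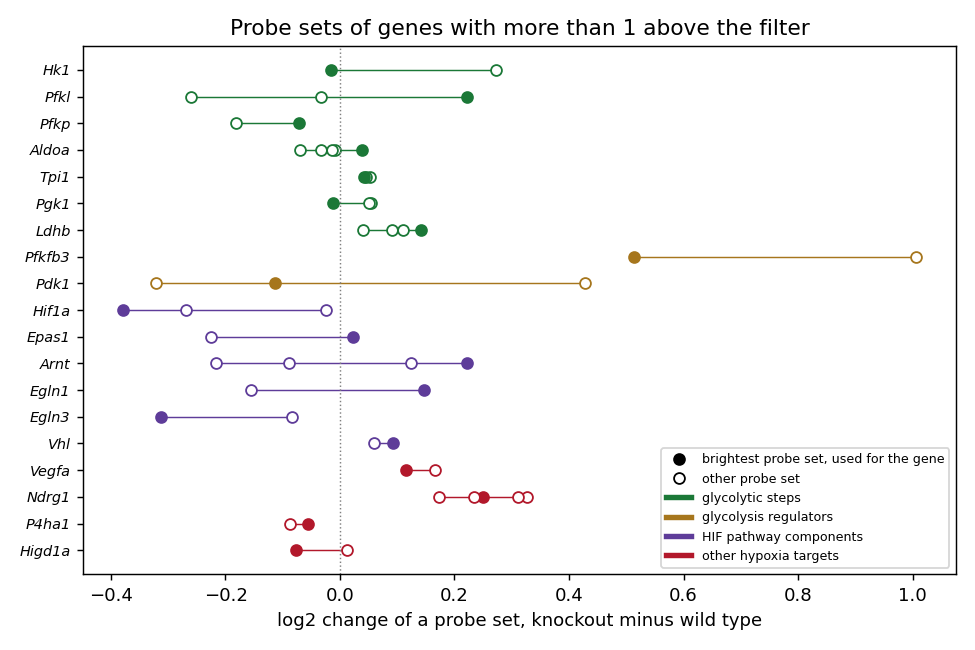
Log2 change of every probe set above the filter for the 19 tested genes with more than 1, filled for the brightest, which represents the gene. Ndrg1 lies between 0.17 and 0.33 on all its probe sets, while Pdk1 spans −0.32 to 0.43.

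Other genes of the same pathways were taken from a list of 60 that are not among the 35. Of 48 tested, 2 rose and 5 fell, 14.6% beside the 6.48% of all genes, and the median log2 change was −0.06. The list was written with results of these data known, and the difference from other genes was not tested. Ddit4, which restrains mTORC1 and is raised by hypoxia and by glucocorticoids, read 582, 552 and 408 in knockout and 224, 217 and 215 in wild type. All knockout arrays were above the wild type arrays, a rise of 2.32-fold (log2 change 1.21, SE 0.12, limma adjusted p = 0.000148). Pdk4, the pyruvate dehydrogenase kinase that fasting and PPAR receptors raise, read 89.0, 67.8 and 84.1 in knockout and 185, 216 and 200.2 in wild type. It fell 2.51-fold on all 3 arrays (log2 change −1.33, SE 0.14, limma adjusted p = 0.000197). Of the same family, Pdk1 and Pdk2 (both below 0) and Pdk3 (at 0.23, limma adjusted p = 0.254) did not pass.

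Hmox1, the heme oxygenase that hypoxia and oxidative stress raise, fell 2.28-fold, with signals of 203, 119 and 138 against 323, 392 and 312. The call of Hmox1 ended on station 1 alone (limma adjusted p = 0.0568), where the log2 change was −1.03. Angptl4, a lipoprotein lipase inhibitor and a target of both HIF and PPAR receptors, fell 1.38-fold, with signals of 562, 507 and 529 against 766, 674 and 764. Bhlhe40, of a repressor of the circadian clock, fell 1.25-fold, from 717, 711 and 743 to 595, 598 and 547 (limma adjusted p = 0.0126), and this call ended without wild type array 1 (0.0524) or 3 (0.064), without the intensity trend (0.0756) and on station 1 alone (0.0795). All 3 were lower on every knockout array than on any wild type array.

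Pklr, of the liver and red cell pyruvate kinase, fell by 0.48 on the log2 scale (197, 165 and 152 against 248, 226 and 239.6, limma adjusted p = 0.0283). It catalyses the same step as the product of Pkm, which rose. The call of Pklr ended without any 1 array other than knockout array 1 (adjusted p 0.068 to 0.121), with averaged probe sets (0.131), without the intensity trend (0.0759) and on station 1 alone (0.128). Cited2, of a protein that competes with HIF-1 alpha for its coactivators, rose 1.21-fold (1045, 1068 and 986 against 873, 796 and 892, limma adjusted p = 0.035), a call that ended without any 1 array except knockout array 3 (0.0568 to 0.136). The call of Cited2 also ended without the filter (0.0563), without the intensity trend (0.14), on station 1 alone (0.0936) and with the replicate block (0.0545). The remaining 41 tested genes did not pass.

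**Figure D5:**
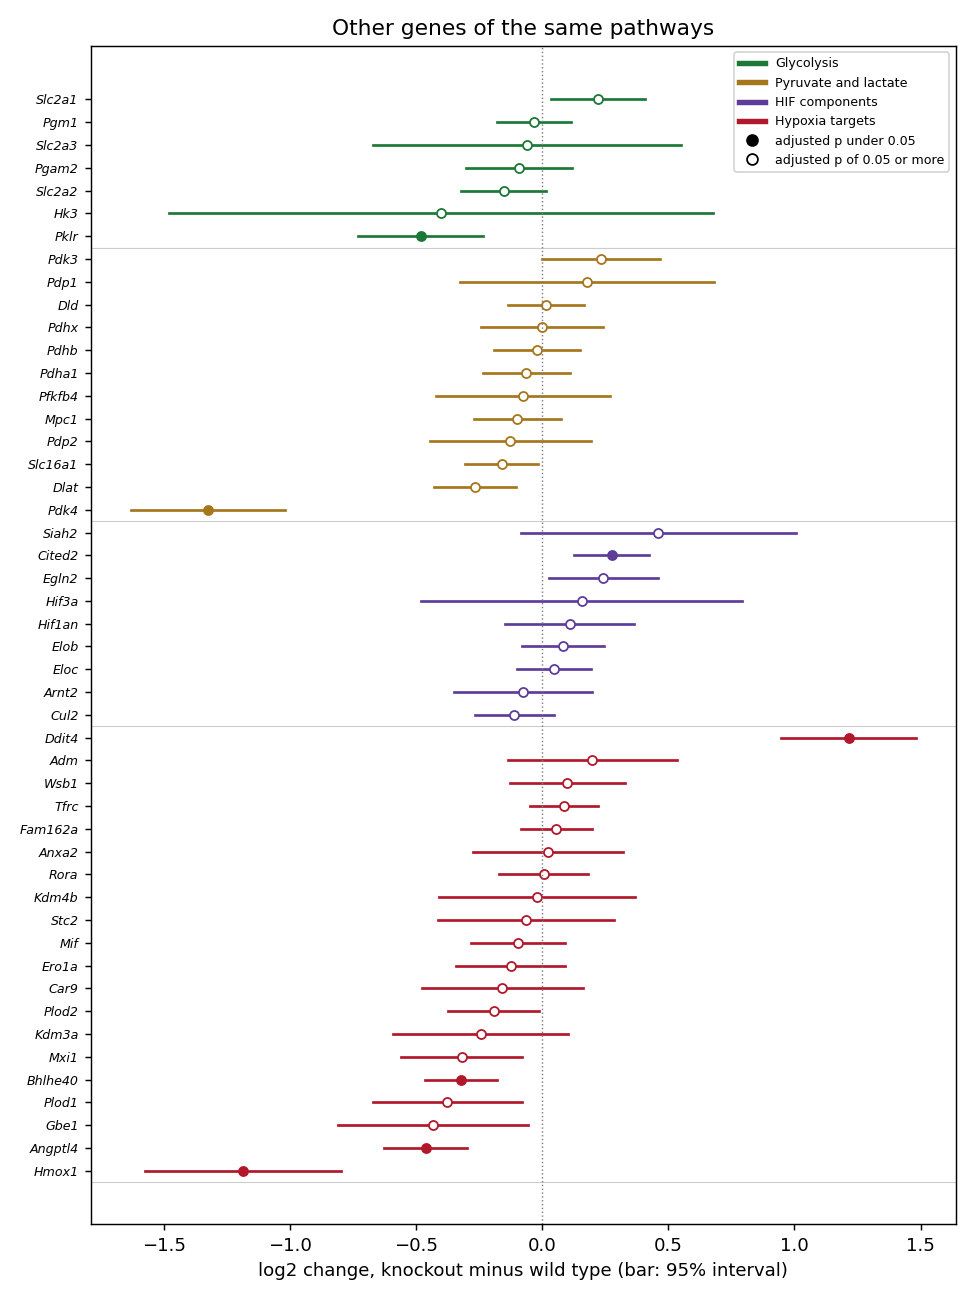
Log2 change with 95% interval of the 48 tested genes of the same pathways that are not among the 35, in 4 roles. Filled points passed limma's threshold: Ddit4 and Cited2 above 0, and Pklr, Pdk4, Bhlhe40, Angptl4 and Hmox1 below.

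Markers of cells moved on the same arrays, and their part in the rise of Pkm and the fall of Bnip3 was not tested. Over all tested genes 3.24% rose and 3.24% fell, the shares to set beside the marker counts that follow. Of 8 leukocyte markers 3 rose and none fell, and their summed signal was 2608 to 2662 in knockout and 1727 to 1745 in wild type. Of 6 podocyte markers 2 rose, with sums of 1748 to 2072 and 1501 to 1599.6. The thick ascending limb had 2 of 7 higher (sums 14036 to 15493 against 11895 to 12414), and the distal convoluted and connecting tubule 3 of 5 (15932 to 16795 against 13531 to 15847). Principal cell markers had 2 of 6 lower (3236 to 3423 against 3464 to 3986). Of the 8 markers of the first proximal segments, S1 and S2, all were above the filter and 1 fell, with sums of 27757 to 29787 and 27233 to 30763. Early response genes, which rise when tissue is handled, had 13 of 19 higher and none lower (14912 to 15376 against 10773 to 10959.6). Of 6 markers of the S3 segment 1 rose (sums 8391 to 9015 against 7333 to 7697), and of 5 intercalated cell markers 2 rose (2215 to 2324 against 1824 to 1894). No endothelial marker passed (1737 to 1808 against 1760 to 1809). No fibroblast or smooth muscle marker passed either, though their sums did not overlap (1130 to 1161 against 985 to 1070). The red cell list had 1 tested marker, Slc4a1, which is also an intercalated cell marker and rose (list sums 418 to 434 against 275 to 309). No marker was at 0, and without detection calls none could be called absent. Markers of later segments were bright in both groups, with wild type means of 3875 for Umod (thick ascending limb) and 3917 for Calb1 (distal list). The values are therefore those of the dissected pieces and not of proximal cells alone.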

How the data were processed

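RNA of 3 knockout and 3 wild type pools was biotin-labelled and hybridised to 1 array each. The authors deposited linear signal intensities. GCOS 1.4 and MAS5 made them, as the submitters' processing notes record, and the genome build is not given in the sources used here. Precision is limited by the number of arrays: the median SE of a log2 change was 0.12.

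The platform annotation gives a single symbol to 34945 of 45037 probe sets other than controls, several symbols to 932 and none to 9160. No pseudocount was added before log2. Probe sets whose mean log2 signal fell short of the median (a signal of 41.9) were dropped, and each gene was represented by its brightest remaining one. Knockout was set against wild type in limma 3.58.1 (R 4.3.3; lmFit, then eBayes with trend) over 11620 genes. Tests were two-sided, and p-values were adjusted by Benjamini-Hochberg. Means and SDs came from pandas 2.3.3 under Python 3.11.15. The fit was tested on simulated data. Fitting the Gapdh control probe sets was chosen after seeing the data. Alternatives were a pseudocount of 50, quantile normalization, no filter or a stricter one, averaged probe sets, no trend, array weights, the station as a block or station 1 alone, the replicate block, and each array left out.

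The members, the lists and the settings were chosen with earlier results of these data known. Values per array are given for genes past the threshold, for the HIF components, and for the 2 further members of each role with the smallest p. Hk2, Ankrd37 and Gapdh, which the main test left out, are also given. Of the other pathway genes, those past the threshold are given per array. Stations were read from the array records.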

Additional observations from a re-analysis of the deposited data

How the results depend on the processing

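Over all genes 487 were called without the intensity trend and 453 on station 1 alone, against 753, and 512 to 733 when 1 array was left out. Of the 29 members, 0 were called without the filter, without the trend and on station 1 alone, and 1 (Bnip3) with the station as a block. Leaving out 1 array left 0 to 1 of them, 0 to 1 glycolytic steps and 0 to 1 other hypoxia targets. Quantile normalization called 2 other hypoxia targets, Bnip3 and Ndrg1. The other pathway genes had 4 calls without the trend and 4 on station 1 alone, and 4 to 7 without 1 array. In all, 25 of the 29 members were never past the threshold. A pseudocount of 50, a stricter filter and array weights kept both calls. The causes were not tested.

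The replicate numbers were not taken to pair the samples, since the deviations of samples with the same number correlated at 0.02, 0.03 and −0.03. With the replicate block the fit called 765 genes over the whole array, 1 HIF component (Hif1a, −0.38, adjusted p = 0.0103) and 0 other hypoxia targets (Bnip3 at 0.0717).

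The median of the glycolytic steps stayed above 0, from 0.025 to 0.073 without 1 array and from 0.018 to 0.045 under the other settings. Medians of the other roles took either sign when 1 array was left out. Without 1 array the regulators ran from −0.13 to 0.13, the HIF components from −0.046 to 0.082 and the other hypoxia targets from −0.11 to 0.025. Averaged probe sets put the HIF components at −0.053. Under the settings that kept all arrays or station 1 alone, the regulators stayed below 0 (−0.17 to −0.026), as did the other hypoxia targets (−0.061 to −0.0044).

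The sign of some members that did not pass the threshold turned. With averaged probe sets the log2 change was 0.13 for Hk1, −0.024 for Pfkl, −0.018 for Aldoa, 0.031 for Pgk1, −0.10 for Epas1 and −0.0043 for Egln1. Station 1 alone gave 0.063 for Hk1, −0.061 for Aldoa, 0.11 for Eno3 and 0.060 for Higd1a. Array weights gave 0.0063 for Hk1, and quantile normalization −0.027 for Aldoa. Leaving out 1 array turned Hk1 (−0.095 to 0.050), Pfkm (−0.030 to 0.068), Pfkp (−0.14 to 0.039), Aldoa (−0.052 to 0.11), Pgk1 (−0.079 to 0.071), Eno3 (−0.16 to 0.080), Pfkfb2 (−0.21 to 0.25), Pdk1 (−0.22 to 0.015), Epas1 (−0.032 to 0.074), Arnt (−0.11 to 0.34), P4ha1 (−0.095 to 0.010), P4ha2 (−0.20 to 0.041) and Higd1a (−0.13 to 0.017).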
